A study of Rattus norvegicus with 4 samples.

Results

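The semaphorin family of axon guidance cues and its receptors were described in single cells of rat sciatic nerve and dorsal root ganglion. Members were the gene symbols Sema3a to Sema7a with a class number and a letter, Plxna to Plxnd with a number, and Nrp1 and Nrp2. This rule found 31 of 25399 genes, namely 20 semaphorins, 9 plexins and 2 neuropilins. The rule used names alone and no measured value. Of the 31 members, 29 reached 20 summed counts in at least 1 cell class of 1 library and are described with values. The other 2 stayed below that, Plxnb1 with 53 and Sema5b with 14 counts in all kept cells together.

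The series holds 1 library from each of 4 groups of Sprague Dawley rats, with sex not determined. The groups were sciatic nerve at postnatal day 1, sciatic nerve at 8 weeks, dorsal root ganglion (DRG, the sensory ganglion beside the spinal cord) at postnatal day 1, and DRG at 8 weeks. Nothing in the sources used here ties a barcode ending to a group, so the libraries are called 1 to 4, no library was given a tissue or an age, and ages and tissues were not compared. The labels describe a culture protocol for primary Schwann cells in medium with serum and leave unstated if the cells that were sequenced came from culture.

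Semaphorins are secreted or membrane-bound proteins that steer axons, vessels and migrating cells, mostly by repulsion. Plexins are their main receptors and act through small GTPases on the cytoskeleton. The secreted class 3 semaphorins mostly need a neuropilin as co-receptor beside a class A plexin, and neuropilins also bind vascular endothelial growth factors (VEGF). In the peripheral nervous system they are known for guiding growing sensory axons.

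The 4 libraries held 10087 to 10559 barcodes and 74425958 to 97572003 unique molecular identifiers (UMIs, 1 per captured transcript). After filtering, 9828, 8426, 6473 and 8448 cells were kept in libraries 1 to 4, with median depths of 6617, 1645.5, 4639 and 7554.5 UMIs. Cells were put into classes by marker genes, none of which is a member, and a class is called "-like" for that reason. Of the kept cells 10.6% to 13.7% stayed in no class. Schwann-like cells, the glia that wrap axons, numbered 131, 224, 244 and 4573, fibroblast-like cells 6592, 422, 1392 and 1345, endothelial-like cells (vessel lining) 112, 538, 175 and 67, and macrophage-like cells 1730, 125, 81 and 94. Neuron-like cells were found in libraries 2 and 3, with 4914 and 3216 cells. Of these, 772 and 1790 had 3000 or more UMIs and carried 90.2% and 97.7% of the neuronal UMIs. Satellite glia-like cells, which wrap the cell bodies of neurons, numbered 707 in library 2 and 44 in library 3, and library 1 held 102 perineurial-like cells of the nerve sheath. Markers of other classes were present at low levels in most classes. In library 2 the 11 neuron markers summed to 21774 CPM (counts as a scaled share of all UMIs of the class in that library) in neuron-like cells and to between 1633 and 4767 CPM in the glial, fibroblast-like, macrophage-like, mural-like and endothelial-like classes. In library 4 the 6 fibroblast markers summed to 57832 CPM in fibroblast-like cells and 7044 CPM in nonmyelinating Schwann-like cells. The part of such RNA in the results was not tested. Of the barcode sequences, 190 occurred in 2 libraries and 1 in 3.

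Levels below are CPM of UMIs summed over all cells of a class in 1 library. The library preparation counts transcript ends, so levels were compared between classes for each gene and not between genes. In sums over cells, fewer expressing cells and less RNA per cell cannot be told apart. With 1 library a group there was no test, so no p-value is given. A member was measured between 2 classes of a library when 1 side had 20 or more UMIs and each side 20 or more cells, and called when its ratio was 2-fold or more, and all intervals are exact 95% intervals that cover counting error only.

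Promoters are shown for 3 members that were each highest, among the Schwann-like, fibroblast-like, endothelial-like and macrophage-like classes, in a different class that was the same in all 4 libraries. Plxnb3 (ENSRNOG00000061731, highest in Schwann-like cells), Plxnd1 (ENSRNOG00000025209, endothelial-like) and Sema3c (ENSRNOG00000006526, fibroblast-like) are given 5′ to 3′ on the strand of the gene, from 250 bases before to 50 bases after the RefSeq transcription start in the build GRCr8. Plxnb3 lies at chrX:156646624-156646923 on the plus strand, Plxnd1 at chr4:150715138-150715437 on the minus strand and Sema3c at chr4:18699578-18699877 on the minus strand. Capitals mark matches of the motifs searched on both strands, which were ACAAAG and ACAATG (cores known to be bound by Sox proteins), CCGGAA (a core of ETS factors), GGGCGG (the GC box) and TATAAA (the TATA box).
Plxnb3: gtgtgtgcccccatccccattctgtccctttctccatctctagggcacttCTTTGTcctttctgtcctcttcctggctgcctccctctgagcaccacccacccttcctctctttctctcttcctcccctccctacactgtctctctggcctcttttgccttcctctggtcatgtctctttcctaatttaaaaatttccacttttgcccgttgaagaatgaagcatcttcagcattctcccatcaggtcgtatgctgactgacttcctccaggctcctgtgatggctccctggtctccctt
Plxnd1: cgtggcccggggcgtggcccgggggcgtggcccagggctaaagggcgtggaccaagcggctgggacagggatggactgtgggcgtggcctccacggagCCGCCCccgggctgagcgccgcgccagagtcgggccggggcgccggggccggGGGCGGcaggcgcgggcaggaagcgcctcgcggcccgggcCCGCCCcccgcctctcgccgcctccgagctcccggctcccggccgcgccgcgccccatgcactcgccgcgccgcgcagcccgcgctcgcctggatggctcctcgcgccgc
Sema3c: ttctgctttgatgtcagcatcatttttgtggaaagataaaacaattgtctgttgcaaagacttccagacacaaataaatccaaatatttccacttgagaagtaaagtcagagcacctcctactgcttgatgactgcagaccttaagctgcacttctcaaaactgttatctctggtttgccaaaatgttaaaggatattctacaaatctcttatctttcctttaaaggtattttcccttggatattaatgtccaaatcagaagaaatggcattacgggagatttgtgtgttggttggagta
The Plxnb3 window held 1 match, to ACAAAG on the opposite strand. The Plxnd1 window was 83% G or C and held 3 matches to GGGCGG, none of which overlapped another. The Sema3c window was 36.3% G or C and held 0 matches. RefSeq promoters were found for 23 of the 31 members. Among these, ACAAAG occurred in 5, ACAATG in 2, CCGGAA in 2, GGGCGG in 13 and TATAAA in 0. In all 33469 promoters of the same length the shares were 18.8%, 13.2%, 15.0%, 33.1% and 14.2%. A match is a run of letters and is not evidence of a bound site.

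Among the class 3 semaphorins, Sema3c, a secreted cue, was highest in the connective tissue classes. Its level in fibroblast-like cells was 260, 248, 323 and 523 CPM in libraries 1 to 4. Schwann-like cells held 71.4, 13.7, 48.3 and 154 CPM, and neuron-like cells 26.5 and 17.9 CPM in libraries 2 and 3. In every library the fibroblast-like level of Sema3c stood above the Schwann-like level. Endothelial-like and macrophage-like cells were at 16.6 CPM or less in all 4 libraries. The highest value of any class was 696 CPM in the perineurial-like cells of library 1. With each cell thinned to 1500 UMIs, Sema3c was detected in 23.6%, 21.3%, 24.1% and 39.0% of fibroblast-like cells, and without thinning in 57.8%, 47.4%, 45.9% and 71.4%. In endothelial-like cells the thinned shares were 0.893%, 0%, 0.599% and 1.56%, where the 0 of 520 cells has an exact upper bound of 0.707% (0.577% by a limit of 3 cells). Unthinned shares there were 3.57%, 1.49%, 1.71% and 14.9%. Median depths were 7823, 6740, 5713 and 12271 UMIs for fibroblast-like and 5622.5, 6465, 4948 and 23150 UMIs for endothelial-like cells.

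Sema3d, another secreted cue, followed the same classes more narrowly. Fibroblast-like cells held 58.3, 48.4, 53.4 and 95.2 CPM and perineurial-like cells 142 CPM. In Schwann-like cells Sema3d had 0, 0, 2 and 15 UMIs, or 0.369 CPM in library 4. Endothelial-like cells were at 51.2 CPM in library 1 but at 4.76, 0.865 and 2.35 CPM in the others. Library 1 was therefore the library in which Sema3d did not separate these vessel cells from fibroblast-like cells.

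Sema3b, a secreted semaphorin known to bind neuropilins, lay on the glial side. Schwann-like cells held 53.0, 50.6, 14.4 and 15.1 CPM of it and fibroblast-like cells 9.46, 2.98, 0.11 and 0.76 CPM. Satellite glia-like cells were at 18.2 and 17.5 CPM in libraries 2 and 3, and neuron-like cells at 0.662 and 0.259 CPM. Glia were thus above neurons and fibroblast-like cells in each library with both classes. Sema3g, known mainly from vessels, was at 4.61, 6.32, 5.93 and 17.4 CPM in Schwann-like and 6.56, 9.78, 13.0 and 3.29 CPM in endothelial-like cells. In fibroblast-like cells Sema3g stayed at 0.76 CPM or less.

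Sema3f, a ligand that prefers Nrp2, was spread over perineurial-like cells (70.6 CPM), endothelial-like cells (42.0, 29.3, 16.4 and 15.5 CPM) and neuron-like cells (7.64 and 14.6 CPM). Schwann-like cells had 3, 0, 1 and 34 Sema3f UMIs, the last being 0.835 CPM. Its fibroblast-like level differed widely between libraries, at 1.35, 3.65, 9.03 and 18.2 CPM. Sema3a, the classic collapsing cue that acts through Nrp1, was sparse, with 142 UMIs in all kept cells and at most 9.19 CPM in a class of 20 or more cells, from 7 UMIs in endothelial-like cells of library 1. Sema3e, which can bind Plxnd1 without a neuropilin, had 232 UMIs in all kept cells. Its largest sum in a cell class compared here was 72 UMIs, or 1.77 CPM, in Schwann-like cells of library 4.

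**Figure D1:**
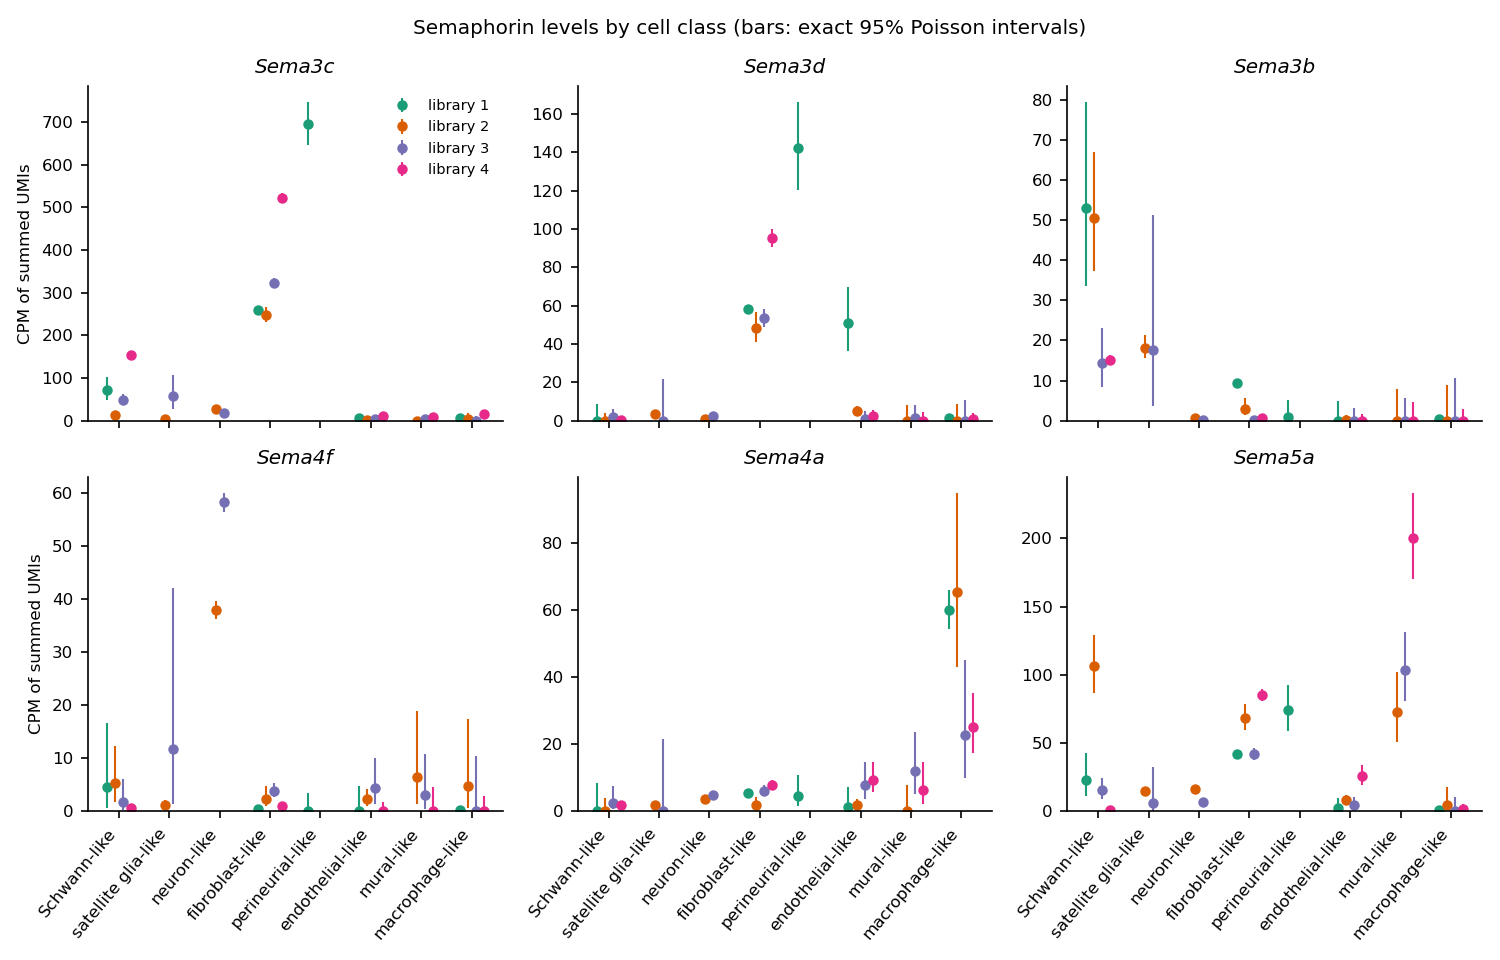
Levels of 6 semaphorins (vertical axes, CPM of summed UMIs) by cell class (horizontal axes) and library (colours), with exact 95% Poisson intervals as bars. Sema3c and Sema3d sit highest in fibroblast-like and perineurial-like cells, Sema3b in glia, Sema4f in neuron-like cells and Sema4a in macrophage-like cells, among the 8 classes plotted.

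The class 4 semaphorins, which span the membrane, divided among neurons, glia and macrophages. Sema4f was at 38.0 and 58.3 CPM in the neuron-like cells of libraries 2 and 3. Glial, fibroblast-like, endothelial-like, mural-like and macrophage-like cells of those libraries held between 0 and 11.7 CPM, so neurons stood above those classes for Sema4f in both. The 43 neutrophil-like cells of library 3, at 52.9 CPM from 7 UMIs, were level with neurons. Thinned to 1500 UMIs, 3.88% and 7.33% of neuron-like cells and 0.381% and 0.67% of glial cells had a Sema4f UMI. The unthinned shares were 12.3% and 44.6% for neurons and 1.41% and 1.74% for glia, at median depths of 1122.5 and 8000 against 7865 and 3883 UMIs.

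Sema4d, a ligand of class B plexins and of the immune receptor Cd72, was at 26.0 and 7.79 CPM in neuron-like cells. Schwann-like cells held 2.30, 6.32, 2.54 and 1.23 CPM of it. Sema4b was at 23.4 and 30.7 CPM in neuron-like cells, at 23.8 CPM in perineurial-like cells and between 4.77 and 10.4 CPM in fibroblast-like cells. Its log2 ratio of neurons to glia was 0.52 and 1.58, against 2.31 and 1.60 for Sema4d, so the 2 genes differed in library 2 and lay together in library 3.

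Sema4c, a ligand of Plxnb2, was found in glia and mural-like cells. Its Schwann-like level was 13.8, 50.6, 83.1 and 50.3 CPM, and mural-like cells, the contractile cells around vessels, held 47.3, 43.6 and 46.3 CPM in libraries 2 to 4. Neuron-like cells were at 3.77 and 5.87 CPM. Sema4g was at 2.30, 31.6, 34.7 and 5.63 CPM in Schwann-like cells, so libraries 2 and 3 stood above libraries 1 and 4. In fibroblast-like cells Sema4g was at 0.968, 0.331, 1.54 and 2.22 CPM. Among the Schwann-like, fibroblast-like, endothelial-like and macrophage-like classes, Sema4a, known from immune cells, was highest in macrophage-like cells in every library. Its level there was 59.9, 65.2, 22.8 and 25.0 CPM. The fibroblast-like level of Sema4a was 5.45, 1.99, 5.95 and 7.72 CPM.

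Sema5a, a membrane semaphorin with thrombospondin repeats and a ligand of Plxnb3, was highest in mural-like cells of libraries 3 and 4. Mural-like cells held 73.1, 104 and 200 CPM in libraries 2 to 4, and fibroblast-like cells 41.7, 68.6, 41.6 and 85.3 CPM. Its Schwann-like level was 23.0, 106, 15.3 and 1.20 CPM in libraries 1 to 4. Library 2 was the only one of the 4 in which Sema5a was higher in Schwann-like than in fibroblast-like cells. The myelinating cells among them held 74.2, 199, 21.5 and 2.86 CPM, and in libraries 1 to 3 they carried 10 of 10, 100 of 101 and 18 of 18 of the Schwann-like UMIs of Sema5a.

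Among the class 6 members, which act as both ligands and receptors, Sema6a, Sema6b and Sema6d were highest in a vessel or glial class in every library. Sema6b, a ligand of Plxna4, was at 87.9, 40.9, 55.4 and 56.0 CPM in endothelial-like cells. Fibroblast-like cells held 0.622, 0, 0.551 and 0.351 CPM and Schwann-like cells 2.53 to 5.93 CPM. The endothelial-like level of Sema6b was above that of every other class of 20 or more cells in each library. Sema6d, which binds Plxna1, was at 73.5, 112, 121 and 187 CPM in endothelial-like cells and at 82.9, 41.1, 119 and 136 CPM in Schwann-like cells. Fibroblast-like cells held 12.1, 11.9, 25.9 and 70.9 CPM of Sema6d, below both. Mural-like cells held more Sema6d than either in library 4, at 259 CPM, and were close to both in library 3, at 126 CPM. Neuron-like cells were at 61.4 CPM in library 2, above the Schwann-like level, and were below it in library 3. Sema6a, a ligand of Plxna2 and Plxna4, was at 22.3, 11.3, 8.65 and 12.2 CPM in endothelial-like cells. In fibroblast-like cells Sema6a was at 1.38, 1.33, 2.97 and 11.6 CPM, so that library 4 left almost no difference. Sema6c stayed at 7.98 CPM or less in every class of 20 or more cells, a value from 4 UMIs in myelinating Schwann-like cells of library 2. Within library 1 it was highest in fibroblast-like cells, at 2.32 CPM. Sema7a, a lipid-anchored semaphorin that binds Plxnc1 and integrins, was at 21.0, 31.3, 20.8 and 19.8 CPM in endothelial-like cells and at 2.54 to 5.27 CPM in Schwann-like cells.

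**Figure D2:**
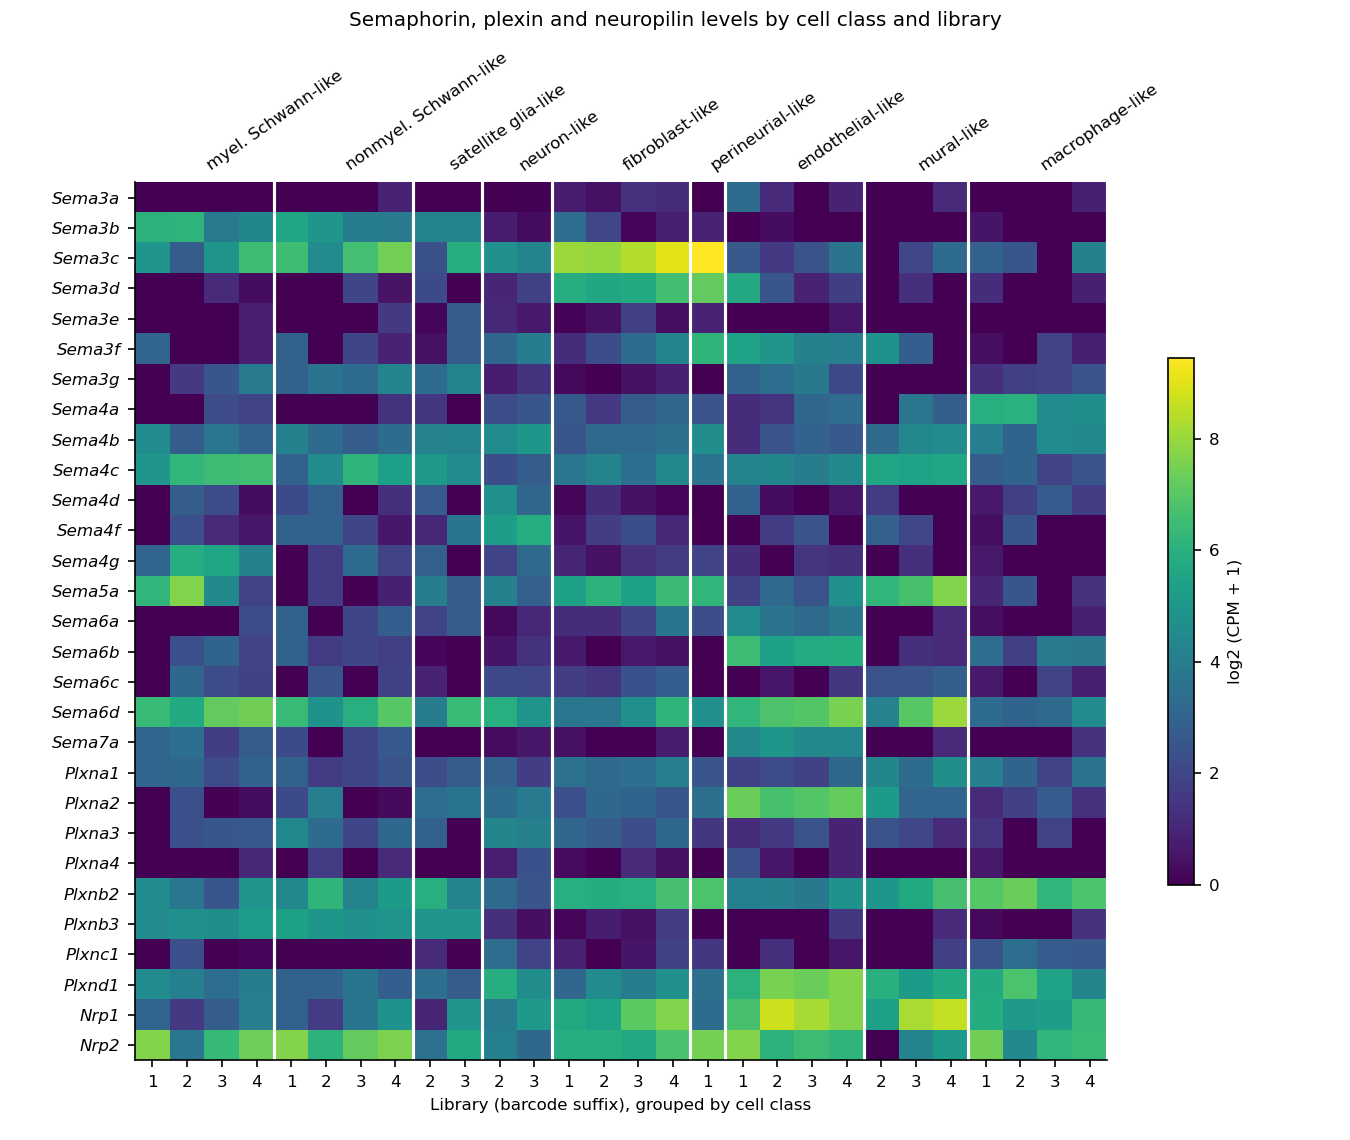
Levels of the described members (rows) in each cell class and library (columns) on a log scale of CPM. Sema3c and Sema3d are highest in fibroblast-like and perineurial-like columns, and Plxna2, Plxnd1, Sema6b and Sema7a in endothelial-like columns.

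Of the 2 neuropilins, Nrp1 was lower in Schwann-like cells than in endothelial-like, mural-like and fibroblast-like cells. Nrp2 had no such order in all libraries. Nrp1, the co-receptor of Sema3a and of VEGF, was at 104, 423, 298 and 207 CPM in endothelial-like cells. Fibroblast-like cells held 52.8, 43.8, 131 and 200 CPM, and Schwann-like cells 6.91, 2.11, 7.63 and 25.1 CPM. Schwann-like cells were thus the lowest of these classes in each library, and the endothelial-like and fibroblast-like levels of library 4 lay close together. Mural-like cells held 40.8, 301 and 381 CPM of Nrp1 in libraries 2 to 4, above the endothelial-like level in library 4 and far below it in library 2. Neuron-like cells were at 13.9 and 33.7 CPM. Perineurial-like cells of library 1 were at 9.17 CPM from 10 UMIs, close to the Schwann-like level there. Thinned to 1500 UMIs, Nrp1 was detected in 11.6%, 42.9%, 35.9% and 25.0% of endothelial-like cells and in 1.59%, 0%, 1.67% and 3.94% of Schwann-like cells. Unthinned shares were 36.6%, 77.1%, 69.7% and 85.1% against 2.29%, 0.893%, 3.28% and 17.9%, with Schwann-like median depths of 3058, 3396.5, 4301.5 and 7599 UMIs.

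Nrp2, the co-receptor that prefers Sema3f, was present in glia, vessels and connective tissue. Schwann-like cells held 207, 37.9, 98.3 and 185 CPM and fibroblast-like cells 57.5, 57.3, 51.1 and 107 CPM. The Schwann-like level was the higher in libraries 1, 3 and 4 and the lower in library 2. Endothelial-like cells held 206, 68.2, 87.4 and 71.5 CPM of Nrp2, next to the Schwann-like level in libraries 1 and 3, above it in library 2 and below it in library 4. Perineurial-like and macrophage-like cells of library 1 were at 175 and 167 CPM. Neuron-like cells held 15.7 and 7.94 CPM.

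**Figure D3:**
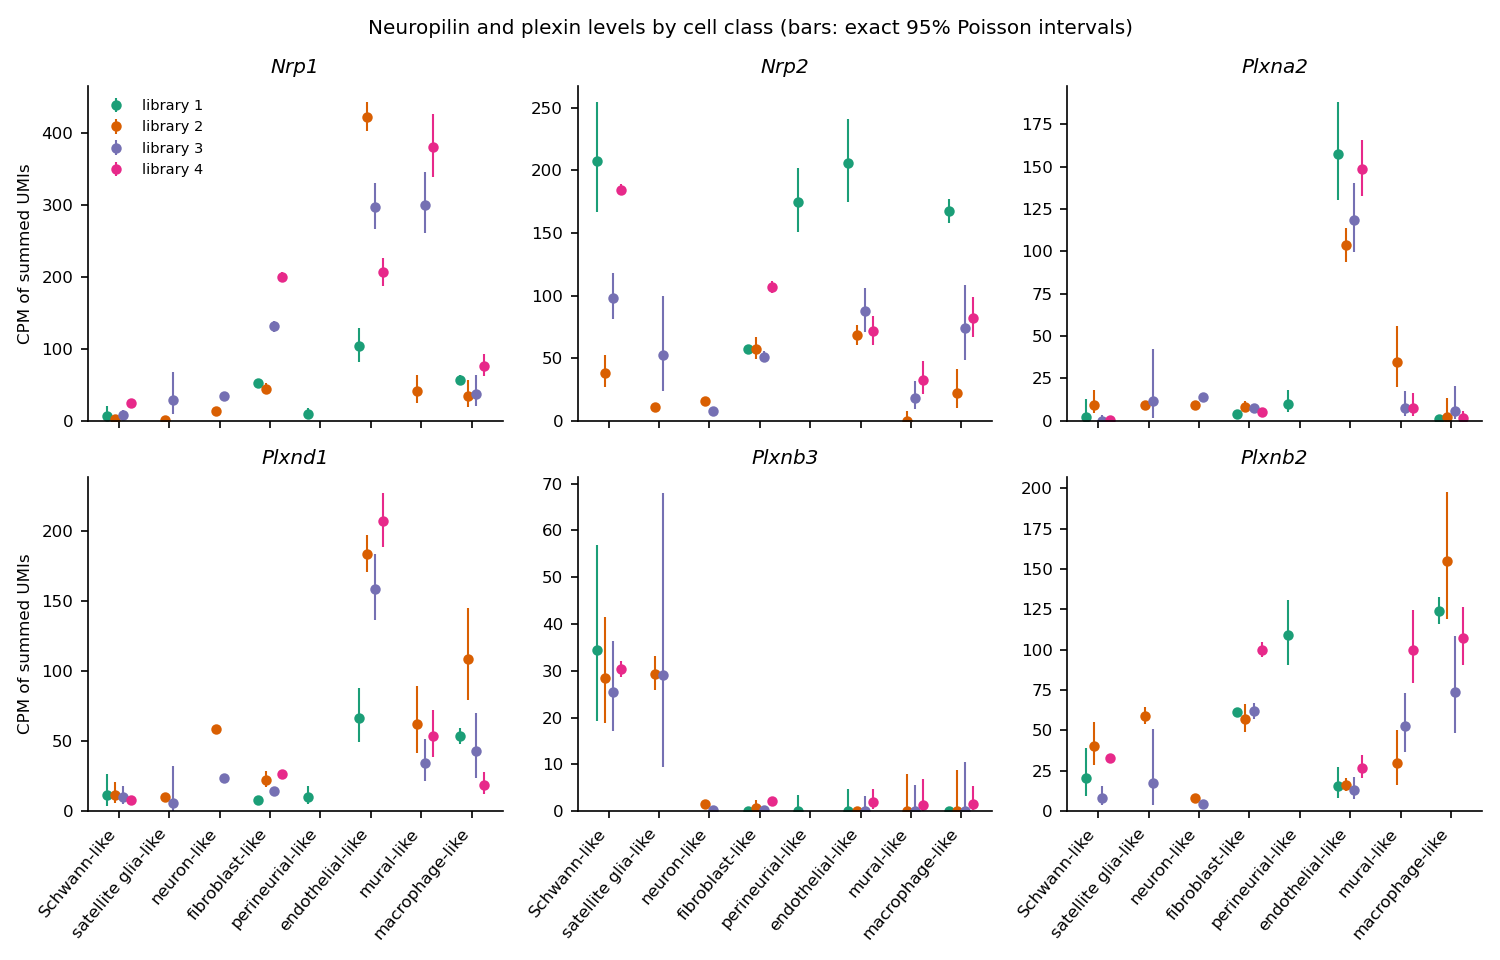
Levels of 6 receptor genes (vertical axes, CPM of summed UMIs) by cell class (horizontal axes) and library (colours), with exact 95% Poisson intervals as bars. Nrp1, Plxna2 and Plxnd1 sit high in endothelial-like cells, Nrp2 in Schwann-like cells of libraries 1, 3 and 4 and in endothelial-like cells of library 1, and Plxnb3 in glia.

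Of the class A plexins, the signalling partners of neuropilins, Plxna2 was highest in endothelial-like cells in each library. Endothelial-like cells held 157, 104, 119 and 149 CPM of Plxna2, against 3.96, 7.96, 7.27 and 4.80 CPM in fibroblast-like cells. Neuron-like cells were at 9.15 and 14.2 CPM and Schwann-like cells at 9.49 CPM or less. Plxna3 was highest in neuron-like cells of libraries 2 and 3, at 18.9 and 16.2 CPM, with 6.96 and 4.61 CPM in glia. Plxna4, a receptor for class 6 as well as class 3 ligands, was at 0.724 and 4.24 CPM in neuron-like cells and at 1.15 CPM in Schwann-like cells of library 4. Plxna1 lay between 8.62 and 15.5 CPM in fibroblast-like cells and between 3.39 and 6.91 CPM in Schwann-like cells. Mural-like cells held 19.3, 9.03 and 25.0 CPM of Plxna1 in libraries 2 to 4, from 9, 6 and 20 UMIs. Macrophage-like cells of library 1 were at 15.5 CPM, the highest level in that library.

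Among the class B plexins, Plxnb3, a receptor for Sema5a, was high in glia alone among the classes of 20 or more cells. Its level in Schwann-like cells was 34.5, 28.5, 25.4 and 30.4 CPM, from 15, 27, 30 and 1237 UMIs. Satellite glia-like cells held 29.4 and 29.2 CPM of Plxnb3 in libraries 2 and 3, next to the Schwann-like value. Fibroblast-like cells were at 0.121, 0.663, 0.33 and 2.28 CPM and neuron-like cells at 1.49 and 0.302 CPM. Glial classes thus lay above every other class in libraries 2 to 4, while no single class of library 1 reached 20 UMIs. The satellite value of library 3 rested on 5 UMIs. In library 4 myelinating Schwann-like cells held 36.7 CPM and nonmyelinating ones 28.7 CPM. Thinned shares of Schwann-like cells with a Plxnb3 UMI were 5.56%, 4.04%, 5.42% and 4.20%, against 0%, 0%, 0.0737% and 0.178% of fibroblast-like cells. Unthinned shares were 9.92%, 11.6%, 11.9% and 22.3% against 0.106%, 0.474%, 0.216% and 2.60%. Plxnb2, the receptor of Sema4c, was broad. It stood at 124, 155, 74.1 and 107 CPM in macrophage-like, 61.4, 57.0, 61.8 and 100 CPM in fibroblast-like and 20.7, 40.1, 8.47 and 33.1 CPM in Schwann-like cells.

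Plxnd1, the receptor of Sema3e and a known vessel gene, was at 66.9, 184, 159 and 208 CPM in endothelial-like cells. Neuron-like cells held 58.8 and 23.6 CPM, mural-like cells 62.3, 34.6 and 53.8 CPM in libraries 2 to 4, and Schwann-like cells 7.96 to 11.6 CPM. The endothelial-like value of Plxnd1 was the highest among the Schwann-like, fibroblast-like, endothelial-like and macrophage-like classes in each library. Plxnc1, the receptor of Sema7a, was at 9.37 and 2.76 CPM in neuron-like and 4.50, 9.66, 5.70 and 5.30 CPM in macrophage-like cells. Schwann-like cells had 0, 2, 0 and 2 Plxnc1 UMIs.

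The class with the highest level among the Schwann-like, fibroblast-like, endothelial-like and macrophage-like cells could be read, as a point value, in all 4 libraries for 22 members. It was the same class in all 4 libraries for 12 of them. The share over all genes was not computed, so this count is not a result about the members. Classes outside this ranking could stand higher. Mural-like cells did for Nrp1 in library 4 (381 against 207 CPM) and perineurial-like cells for Sema3c in library 1 (696 against 260 CPM). Neutrophil-like cells did for Sema4a in library 3 (272 against 22.8 CPM). Within the ranking, the class of these 12 was endothelial-like for Nrp1, Plxna2, Plxnd1, Sema6a, Sema6b and Sema7a and Schwann-like for Plxnb3 and Sema4g. It was fibroblast-like for Sema3c and Sema3d, and macrophage-like for Plxnb2 and Sema4a. For the other 10 the highest class differed between libraries. Both Schwann-like entries were weak in library 1. Sema4g rested there on 1 Schwann-like UMI, and its interval against fibroblast-like cells included no difference. For Plxnb3 no single class of library 1 reached the UMI minimum for a measured ratio. Several of the 12 included near ties. Against fibroblast-like cells the ratio was 1.06 (0.67 to 1.60) for Sema6a in library 4. For Plxnb2 it was 1.20 (0.78 to 1.78) and 1.07 (0.90 to 1.27) in libraries 3 and 4. Plxnd1 stood at 1.25 (0.91 to 1.68) against macrophage-like cells in library 1. Nrp1 was at 207 against 200 CPM in fibroblast-like cells of library 4.

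The series asks about Schwann cells, so the ratio of Schwann-like to fibroblast-like levels was taken within each library. In Schwann-like cells 10 of 24, 5 of 15, 4 of 21 and 10 of 29 measured members were higher in libraries 1 to 4, where 28.8%, 12.1%, 10.8% and 15% of all genes were. Lower were 4, 3, 9 and 14, where 8.6%, 19.1%, 18.2% and 17.2% of all genes were. The shares of members called lay over those of all genes in both directions in all 4 libraries, with the lower share of library 2 close to it. The median log2 ratio of the members was 1.71, -0.17, -0.60 and -0.80, that of all genes 0.83, -0.01, -0.01 and 0.05. In library 1 the Schwann-like side held 434227 UMIs against 57844961, so its floor of 3 UMIs stood at 6.91 CPM and lifts the ratios of low genes there.

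Of the 29 members measured in at least 1 library, 8 were higher in Schwann-like cells in every library in which they were measured and 3 were lower, where 9.77% and 5.1% of all genes were. Plxnb3 had log2 ratios of 5.42 (interval 3.43 to 8.54), 6.27 (4.58 to 8.62) and 3.74 (3.28 to 4.23) in libraries 2 to 4. Sema3b had 2.49, 4.08 and 4.32 in libraries 1, 2 and 4, and its lowest lower bound was 1.82. Sema4g had 1.25, 6.58, 4.49 and 1.34, of which the first and second rested on 1 UMI on the weaker side, with intervals of -4.08 to 3.79 and 3.99 to 11.93. Sema7a was at 3.74 (0.59 to 5.78, from 2 UMIs) and 3.03 (2.16 to 4.05) in libraries 1 and 4, and Sema6b at 2.89 (-0.21 to 4.85, from 2 UMIs) and 2.85 (1.68 to 4.33). Sema3g, Plxna4 and Sema4d were measured in library 4 alone, at 4.52, 1.72 and 3.39. The 3 lower members were the ligands Sema3c and Sema3d and the VEGF co-receptor Nrp1. Sema3c was lower by log2 ratios of -1.87, -4.18, -2.74 and -1.76, and Nrp1 by -2.93, -4.38, -4.11 and -2.99. Sema3d was at least 8.44-fold and 15.3-fold lower in libraries 1 and 2, where Schwann-like cells had 0 UMIs, and stood at -4.98 and -8.01 in libraries 3 and 4. Nrp2 differed in sign, at 1.85, -0.60, 0.94 and 0.79.

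**Figure D4:**
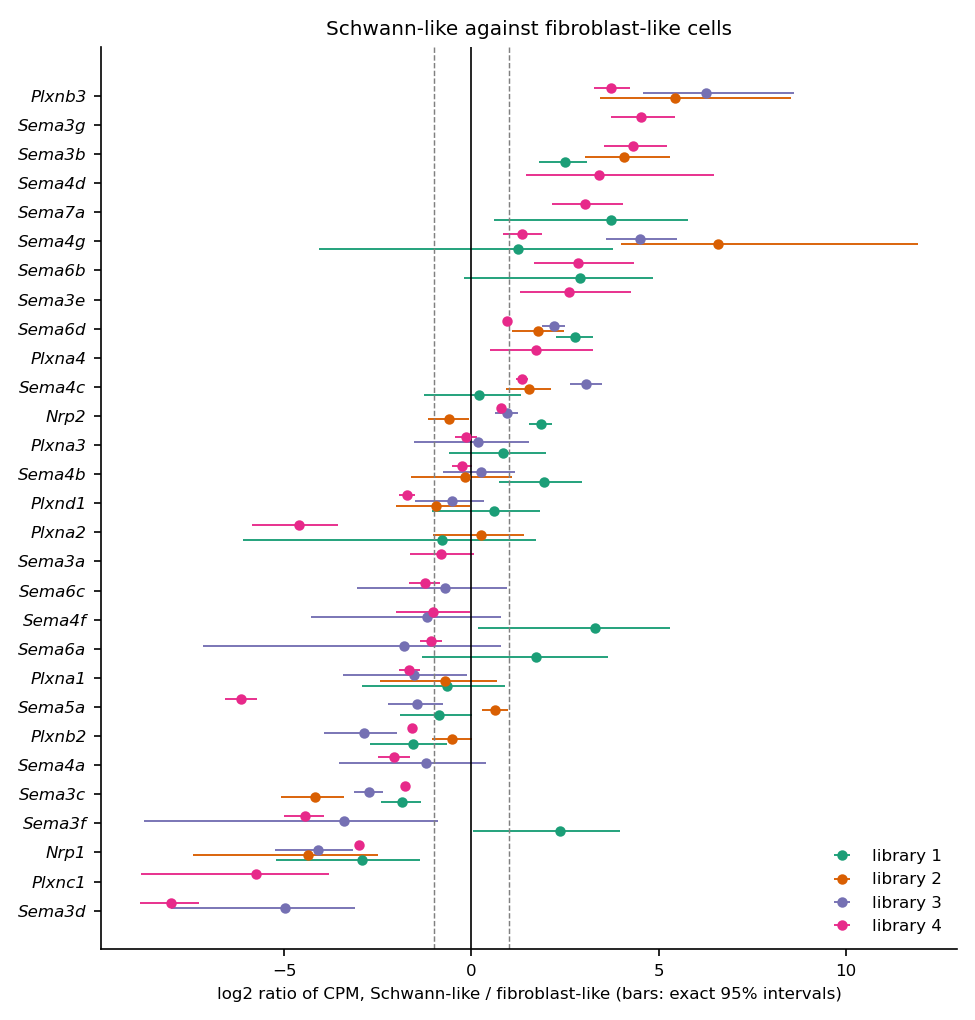
Log2 ratio of CPM between Schwann-like and fibroblast-like cells (horizontal axis) for each member (rows) and library (colours), with exact 95% intervals as bars and dashed lines at 2-fold. Plxnb3, Sema3b and Sema3g lie to the right in the libraries shown, and Sema3c, Sema3d and Nrp1 to the left. Members without UMIs on a side of a library have no point there, as Sema3d in libraries 1 and 2.

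Within Schwann-like cells, the myelinating state (markers such as Mbp and Mag) was set against the nonmyelinating state (Ncam1, Ngfr and L1cam). These numbered 41, 116, 148 and 863 against 90, 108, 96 and 3710 cells. Of 25 measured members 3 were higher and 3 lower in the myelinating state wherever measured (all genes 2.8% and 7.65%), and at a 3-fold threshold 3 were called in all. By library, 0 of 3, 5 of 7, 2 of 6 and 4 of 25 were higher (all genes 2.96%, 9.97%, 7.98% and 3.28%) and 1, 2, 1 and 3 lower (all genes 9.82%, 16.3%, 8.98% and 8.64%). Only library 4 measured most members. Sema4g was higher in myelinating cells with 57.8 against 2.24 CPM, 45.4 against 8.77 CPM and 16.3 against 2.85 CPM in libraries 2 to 4. Its log2 ratios were 4.69 (2.10 to 10.04, from 1 UMI), 2.37 (0.72 to 4.71, from 3 UMIs) and 2.52 (2.13 to 2.92). Sema5a followed with 199 against 2.24 CPM in library 2 and 2.86 against 0.773 CPM in library 4. Plxnd1 was at 15.2 against 6.09 CPM in library 4. The lower members were Sema4d, with a log2 ratio of -2.64, Sema3e, with -1.51, and Sema3a, with 0 against 30 UMIs, or at least 2.59-fold lower, each measured in library 4 alone. Sema4c was higher in all 3 libraries in which it was measured, at 1.76, 0.33 and 1.25, but below 2-fold in library 3. Plxnb3 did not differ by 2-fold, with log2 ratios of -0.07 and 0.35 in libraries 3 and 4.

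Dividing Schwann-like cells (Mki67, Top2a) could be set against nondividing ones in library 4, 696 against 3665 cells. Of 25 members measured, 0 were higher (all genes 4.92%) and 1 was lower (all genes 3.17%). That member was Sema4g, at 1.49 against 7.02 CPM, with a log2 ratio of -2.23 (-3.17 to -1.43). In library 4 Sema4g was at 16.3 CPM in myelinating and 2.85 CPM in nonmyelinating Schwann-like cells. The comparison did not separate these 2 states, and their part in the Sema4g ratio was not tested. The other 24 measured members had log2 ratios between -0.86 and 0.69, and other settings called 2 or 3 members.

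Satellite glia-like cells were compared with Schwann-like cells in libraries 2 and 3. Of 18 members measured 1 was higher and 2 lower wherever measured, where 6.49% and 8.32% of all genes were. By library, 1 of 18 and 0 of 6 were higher (all genes 7.7% and 10.3%) and 6 and 1 lower (all genes 12.1% and 8.24%). Sema5a was at 14.8 against 106 CPM and Sema3b at 18.2 against 50.6 CPM in library 2, with log2 ratios of -2.85 (-3.23 to -2.46) and -1.48 (-1.95 to -0.98). Sema4b was at 17.1 against 7.38 CPM, a log2 ratio of 1.21 (0.13 to 2.55). All 3 were measured in library 2 alone. The Schwann-like side there pooled 116 myelinating and 108 nonmyelinating cells. Its myelinating cells carried 100 of the 101 Sema5a UMIs and 29 of the 30 Sema4g UMIs. For Sema3b the myelinating cells held 69.8 CPM and the nonmyelinating cells 29.1 CPM. The lower values of Sema5a and Sema4g are therefore against sums of almost only myelinating counts, and the 2 states were not compared with satellite glia-like cells one by one. The 4 melanocyte markers found, 2 of them at 0, summed to 2373 CPM in the satellite glia-like cells of that library and to 67.8 and 15.7 CPM in myelinating and nonmyelinating Schwann-like cells. Mitochondrial UMIs made up 15.1% of theirs against 10.7% in Schwann-like cells, and their part in these differences was not tested. Sema4g was lower at 6.44 against 31.6 CPM in library 2, and with 0 against 41 UMIs in library 3 the bound of at least 1.98-fold fell short of the threshold. The count of 3 is small and varied between 1 and 6 with the settings.

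Neuron-like cells were compared with all glia in libraries 2 and 3, since axons are known to carry receptors for cues from their surroundings. Higher in neurons were 12 of 27 and 9 of 28 members, where 33.7% and 19.2% of all genes were. Lower were 8 and 12, where 21.1% and 26.6% of all genes were. The median log2 ratio was 0.73 and -0.56 for members and 0.38 and -0.27 for all genes. Satellite glia-like cells were 707 of 1349 glia in library 2 and 44 of 459 in library 3. Of 28 members, 7 were higher and 7 lower wherever measured (all genes 16.6% and 17.6%).

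The higher members were 4 receptors and 3 ligands of classes 3 and 4. Sema4f had log2 ratios of 4.61 (3.96 to 5.34) and 3.83 (2.85 to 5.04), and Sema3f 4.22 and 3.83. Nrp1 stood at 3.50 and 1.72, Plxnd1 at 2.59 and 1.36, Sema4d at 2.31 and 1.60 and Plxna3 at 1.44 and 1.81. Plxna4 was at 3.15 (0.57 to 8.49) in library 2, from 1 glial UMI, and at least 2.76-fold higher in library 3, where glia had 0. Lower in neurons were 2 class B plexins and 5 ligands. Plxnb3 had -4.29 (-4.67 to -3.92) and -6.49 (-7.30 to -5.74), Sema3b -4.98 and -5.63, Sema4c -3.24 and -3.67, and Sema3g -3.68 and -2.60. Plxnb2 was at -2.80 and -1.49, Sema4g at -1.53 and -1.46, and Sema7a, measured in library 3 alone, at -1.99. Nrp2, Sema3c and Sema6d differed between the libraries, at 0.13 and -3.74, 1.98 and -1.49, and 1.78 and -1.76. With cells thinned to 1500 UMIs 9 members were called wherever measured, and with neurons of 3000 or more UMIs alone 15.

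**Figure D5:**
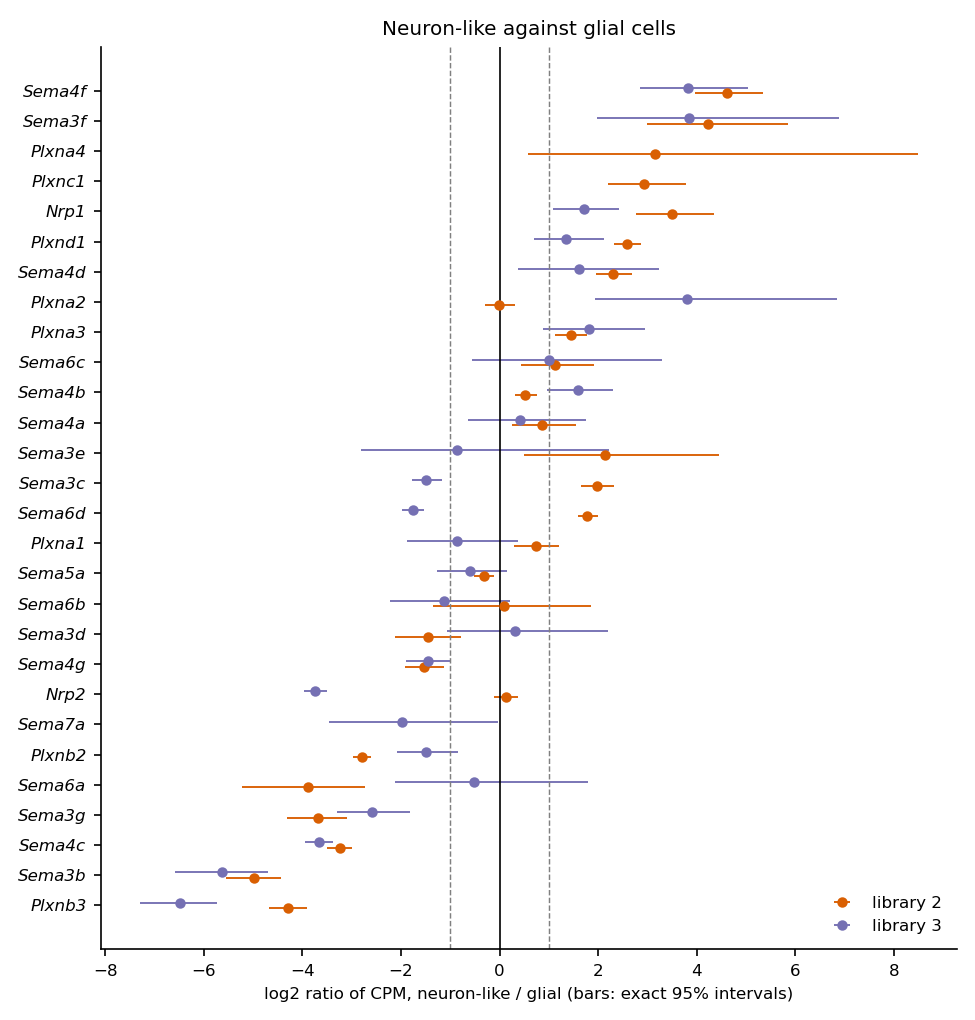
Log2 ratio of CPM between neuron-like and glial cells (horizontal axis) for each member (rows) in libraries 2 and 3 (colours), with exact 95% intervals as bars and dashed lines at 2-fold. Members without UMIs on a side of a library have no point there, and Nrp2, Sema3c and Sema6d lie on different sides of 2-fold or of 0 in the 2 libraries.

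Nociceptor-like neurons, the pain-sensing kind gated by genes such as Scn10a and Calca, numbered 625 and 1409 in libraries 2 and 3. Other neurons of 3000 or more UMIs numbered 135 and 370, with median depths of 10872 and 18470 against 68647 and 43409 UMIs. Of 27 members, 2 were higher and 3 lower in nociceptors wherever measured (all genes 2.73% and 4.43%). By library, 6 and 2 of 25 were higher (all genes 8.75% and 4.69%) and 4 and 8 lower (all genes 9.91% and 8.29%). Sema4b was at 25.5 against 4.04 CPM and 33.4 against 14.4 CPM, with log2 ratios of 2.66 (1.85 to 3.61) and 1.21 (0.96 to 1.48). Nrp2 was at 17.5 against 3.70 CPM and 8.31 against 3.99 CPM. Plxna2 was lower, at 8.76 against 19.9 CPM and 11.8 against 29.8 CPM, with log2 ratios of -1.18 and -1.34. Sema6b and Sema6a were measured in library 3 alone, at -4.32 (-5.01 to -3.68) and -1.33 (-2.09 to -0.50). Nrp1 and Plxna1 took opposite signs in the 2 libraries, at 2.14 and -0.72 and at 1.08 and -2.99. The 8 nociceptor markers summed to 9397 and 4100 CPM in nociceptors and still to 3687 and 1678 CPM in the other neurons. Tyrobp, an immune signalling adaptor, was at 1.23 against 24.9 CPM in library 2 and 1.68 against 3.54 CPM in library 3, while the 8 macrophage markers summed to 9.60 against 22.9 CPM and 4.09 against 5.76 CPM. The 4 erythroid markers found summed to 63.7 against 426 CPM in library 2 and 1065 against 1067 CPM in library 3, and the part of these in the result was not tested. The count of 5 fell to 3 with a mitochondrial limit of 10% or with a mean of per-cell levels, to 2 in thinned cells and to 1 at a 3-fold threshold.

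Endothelial-like cells held more Plxna2, Plxnd1, Sema6b, Sema6d and Sema7a than fibroblast-like cells in all 4 libraries, and less Sema3c, Sema5a and Plxnb2. Against fibroblast-like cells, 10 of 24, 9 of 17, 7 of 21 and 5 of 23 members were higher in libraries 1 to 4, where 24.9%, 20%, 13.5% and 12% of all genes were. Lower were 5, 5, 5 and 6, where 12.3%, 14.4%, 19.5% and 18.8% of all genes were. The shares of members higher and of members lower both lay above those of all genes in each library. Of 27 members, 6 were higher and 4 lower wherever measured (all genes 9.44% and 5.42%). Sema6b had log2 ratios of 7.14, 6.65 and 7.32 in libraries 1, 3 and 4 and was at least 41.1-fold higher in library 2, where fibroblast-like cells had 0 UMIs. Plxna2 stood at 5.31, 3.70, 4.03 and 4.95 and Plxnd1 at 3.13, 3.03, 3.44 and 2.98. Sema6d was at 2.60, 3.23, 2.23 and 1.40. Sema7a was at 5.92 and 4.94 in libraries 1 and 4 and at least 31.5-fold and 62.9-fold higher in libraries 2 and 3. Sema3g, measured in library 2 alone, was at least 9.83-fold higher. Lower were Sema3c, from -6.95 to -5.53, Sema5a, from -3.99 to -1.72, Plxnb2, from -2.25 to -1.81, and Sema3b, measured in library 1 alone and at least 2.40-fold lower. Nrp1 was higher in libraries 2 and 3 by 3.27 and 1.18, with 0.97 in library 1 and 0.05 in library 4.

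Mural-like cells were compared with endothelial-like cells of libraries 2 to 4. Of 16 members, 3 were higher and 5 lower wherever measured (all genes 7.05% and 8.92%). By library, 2 of 13, 3 of 10 and 4 of 15 were higher (all genes 10%, 15.6% and 11%) and 7, 5 and 7 lower (all genes 18.9%, 16.4% and 14.7%). Both shares of members were larger than those of all genes in each library. Sema5a stood at 3.14, 4.58 and 2.95 and Sema4c at 1.31, 1.57 and 1.10 on the log2 scale, and Plxna1, measured in library 4 alone, at 1.64. Plxna2 was lower at -1.59, -3.98 and -4.31, and Plxnd1 at -1.56, -2.20 and -1.95. Nrp2 was at least 10.6-fold lower in library 2 and at -2.28 and -1.14 in libraries 3 and 4. Sema6b was at least 6.34-fold lower in library 2, with 1 mural UMI in each of the other libraries and log2 ratios of -5.20 (-10.53 to -2.67) and -5.49 (-10.80 to -2.98). Sema7a was at least 4.86-fold and 4.60-fold lower in libraries 2 and 3 and at -3.98 (-9.32 to -1.43) in library 4. Nrp1 went from -3.37 in library 2 to 0.88 in library 4. Thinning to 1500 UMIs left 4 of the 8 calls by count and a 3-fold threshold 5.

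Perineurial-like cells of library 1 held more Sema3c, Sema3d and Sema3f and less Sema3b than fibroblast-like cells of that library. Of 24 members 10 were higher and 4 lower, where 23.4% and 7.81% of all genes were. Sema3f had the largest ratio, 70.6 against 1.35 CPM with a log2 ratio of 5.71 (5.24 to 6.18), and Sema3c and Sema3d stood at 1.42 (1.31 to 1.52) and 1.29 (1.04 to 1.52). Sema4b was at 2.32, Nrp2 at 1.61, Plxna2 at 1.35 and Sema6d at 1.13. Sema4g, Sema6a and Plxnc1 rested on 3, 4 and 2 perineurial UMIs, with intervals that include 0. Nrp1 was lower at 9.17 against 52.8 CPM, a log2 ratio of -2.53 (-3.59 to -1.64). Sema3b, Plxna3 and Plxna1 were lower on 1, 2 and 5 UMIs, and Plxna1 turned to 0.74 in thinned cells. The 10 mural markers, 3 of them at 0, summed to 4145 CPM in these cells and 136 CPM in fibroblast-like cells, and their part was not tested. The 102 cells came from 1 library, and a 3-fold threshold left 6 calls and thinning 9.

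Macrophage-like cells held more Sema4a and less Sema3c than fibroblast-like cells in all 4 libraries. In macrophage-like cells of libraries 1 to 4, 7 of 24, 3 of 13, 3 of 19 and 2 of 21 members stood higher, where 18.1%, 12.9%, 15.3% and 12.7% of all genes were. Lower were 10, 5, 5 and 11, where 24.3%, 18.7%, 15.9% and 24.4% of all genes were. Of 26 members, 3 were higher and 4 lower wherever measured (all genes 9.25% and 7.52%). Sema4a stood at 3.46, 5.04, 1.94 and 1.69, Plxnc1 at 2.47 (1.77 to 3.15) and 1.01 (-0.39 to 2.17) in libraries 1 and 4, and Sema6b at 3.90 in library 1 alone. Sema3c was lower at -5.28, -5.68 and -4.97 in libraries 1, 2 and 4 and at least 37.8-fold lower in library 3. Sema3d was at -5.48 and -6.98 in libraries 1 and 4 and at least 6.68-fold and 6.25-fold lower in libraries 2 and 3. Sema5a was at -5.36, -3.83 and -5.82 in libraries 1, 2 and 4, and Sema3b, measured in library 1 alone, at -4.44. Plxnd1 was higher in libraries 1 to 3, at 2.81, 2.27 and 1.54, and at -0.47 in library 4.

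Other genes of the pathway were followed in fixed lists of 16 receptor partners, 27 effectors, 5 VEGF ligands that share neuropilins and 3 proteases that cut the ligands or receptors. In Schwann-like against fibroblast-like cells, 4 of 15 measured receptor partners were higher wherever measured and 0 lower, 3 of 27 effectors higher and 0 lower, 0 of 5 VEGF ligands higher and 3 lower, and 2 of 3 proteases higher. Of all genes, 9.77% were higher and 5.1% lower by the same rule. The partners were the adhesion molecules Chl1, Nrcam and L1cam and the receptor Met. L1cam, which is also a gate marker of nonmyelinating cells, was at 198, 70.6, 34.7 and 112 CPM against 0.83, 11.3, 5.84 and 7.95 CPM. Vegfa was at 43.8, 29.5, 25.4 and 37.1 CPM, where fibroblast-like cells held 169, 292, 61.7 and 104 CPM. In neurons against glia, 4 of 13 partners were higher and 3 lower, and 8 of 26 effectors higher and 6 lower, where 16.6% and 17.6% of all genes were. Crmp1, a mediator of collapse responses, was at 102 and 497 CPM against 6.39 and 34.9 CPM, and Rnd3, known to bind plexins, at 26.8 and 15.9 CPM against 430 and 480 CPM. In endothelial-like against fibroblast-like cells 5 of 16 partners were higher and 0 lower (all genes 9.44% and 5.42%), among them the VEGF receptors Flt1, Kdr and Flt4. Kdr stood at 276, 645, 835 and 715 CPM against 0.536, 3.98, 1.21 and 2.75 CPM.

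Joint detection of a neuropilin and a class A plexin, the usual receptor of class 3 ligands, was counted in single cells thinned to 1500 UMIs. It was found in 8.04%, 8.65%, 7.78% and 6.25% of endothelial-like cells in libraries 1 to 4. The intervals were 3.74% to 14.7%, 6.38% to 11.4%, 4.21% to 12.9% and 1.73% to 15.2%. In Schwann-like cells the shares were 0%, 0.448%, 0.417% and 0.503%, where the largest upper bound was 2.89%. Neuron-like cells of libraries 2 and 3 had 0.215% (0.0444% to 0.628%) and 0.556% (0.278% to 0.993%). At this depth the endothelial-like share was above those of Schwann-like and neuron-like cells in each library that held them. The nearest interval bounds were 2.89% and 3.74% in library 1, and in library 4 they were 0.754% and 1.73%. Cells of 1 library are not independent samples, so these bounds cover counting error only. The joint share to be met from the level of each gene alone was not computed. Unthinned shares were 45.5%, 37.9%, 43.4% and 76.1% in endothelial-like, 3.82%, 2.68%, 1.23% and 8.66% in Schwann-like and 4.38% and 16.2% in neuron-like cells. At 3000 UMIs the shares were 1.30% and 1.23% in neuron-like cells, and in Schwann-like cells 4.17% in library 1, 0% in library 2 and 1.57% in library 4, so these low shares moved with the depth of thinning.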

How the data were processed

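The deposited matrix held raw UMI counts per gene and cell barcode for 4 joined libraries of the 10x 3′ kit, written by Cell Ranger 3.1.0 per the file headers. CASAVA 1.8, Seurat and the build Rnor_6.0 appear, with no role given, per the submitters' processing notes. The members and gene lists were chosen with earlier results of these data known. Barcodes with 500 or more genes and at most 20% mitochondrial UMIs were kept. Each cell was given the class whose markers scored 0.25 or more (scaled to the 0.9 quantile of each marker), 1.5 times the next class, with 3 or more markers detected. Markers were fixed first, but these scoring limits, the rules for glial states, perineurial cells (4 markers), nociceptors and erythroid cells (haemoglobin over 10%) were set after seeing the data. Cells that bore markers of 2 classes stayed in no class, and no doublet caller was run. UMIs were summed per class and library and divided by the sum, and ratios had a floor of 3 UMIs per side. Exact Poisson, binomial and conditional binomial intervals at 95% cover counting error only. Cells of 1 library are not independent samples. Members with 20 or more UMIs in a class are described, and those called the same way in every library in which they were measured are named, up to 12 a side. Markers missing from the gene list were Foxd3, Cntnap2, Pecam1, Cd79a, Hba-a1, Hbb-b1 and Dct. The ratio code was tested on simulated data. Software was matplotlib 3.10.9, pandas 2.3.3, scipy 1.17.1 and numpy 2.4.6 under Python 3.11.15. Alternatives covered filters, gates, weighting, thinning, the floor, thresholds and leaving out libraries. Promoters came from RefSeq (GRCr8). Other sequences of the members were not used here.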

Additional observations from a re-analysis of the deposited data

How the results depend on the processing

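Each comparison's count of members called the same way was recomputed under the alternatives. The share of all genes called under each alternative is not given. A change in these counts therefore cannot be set against that of genes in general. Of 134 such counts and shares 109 stayed close to the main value and 25 moved, and 0 members were called in opposite directions. Cells thinned to 1500 UMIs gave 1 member for satellite glia against Schwann (main 3), 9 for neuron against glia (main 14), 2 for nociceptors (main 5), 4 for mural (main 8), 9 for perineurial (main 14) and 2 for dividing cells (main 1). At a 3-fold threshold the counts were 3 for myelinating (main 6), 1 for satellite, 9 for neuron, 1 for nociceptor, 5 for mural and 6 for perineurial comparisons. The satellite count was 6 with a pseudocount in place of the floor and 5 with totals that left out mitochondrial, ribosomal and marker genes. The nociceptor count was 3 with a mitochondrial limit of 10% and 3 with a mean of per-cell CPM. The macrophage count was 11 (main 7) with a minimum of 100 UMIs. The dividing count was 2 with a stricter gate, 3 without the 5% deepest cells and 3 with a mean of per-cell CPM. Pairs of a neuropilin and a class A plexin at 3000 UMIs were found in 1.30% and 1.23% of neuron-like cells of libraries 2 and 3, and in 4.17%, 0% and 1.57% of Schwann-like cells of libraries 1, 2 and 4. Of 928 values of named members 809 stayed close, 118 moved and 1 changed sign, the perineurial log2 ratio of Plxna1, which was 0.74 in thinned cells. Values whose sign came from the floor and not from the counts were left out. The cause of these changes was not tested, except that a higher threshold calls fewer members by its construction. Leaving out libraries was chosen after seeing the data: without library 1 or 2 the Schwann count was 15 and 12 (main 11), without library 2 the neuron count was 21, and with neurons of 3000 or more UMIs alone 15. No paired analysis was possible because each group has 1 library and the labels carry no replicate numbers. Depth limits the Schwann-like values of libraries 1 to 3, where many members have fewer than 20 UMIs.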

Other observations

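Neutrophil-like cells reached 20 cells in library 3 alone, with 43 cells. Sema4a stood at 272 CPM there, from 36 UMIs, above the 22.8 CPM of macrophage-like cells of that library. Plxnc1 was at 37.8 CPM from 5 UMIs and Sema4f at 52.9 CPM from 7 UMIs in the same cells. The 29 T or NK-like cells of library 1 held 45.0 CPM of Sema4a, from 4 UMIs. These sums are small and have no second library beside them. In library 2 the 4142 neuron-like cells of fewer than 3000 UMIs held 18.4 CPM of Sema4f and 29.9 CPM of Plxnd1, against 40.1 and 61.9 CPM in deeper neurons.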
